A study of Mus musculus with 36 samples.

Results

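The nuclear-encoded genes of the mitochondrial respiratory chain were followed along the mouse intestine. The members were all genes whose annotated symbol begins with Nduf, Sdha, Sdhb, Sdhc, Sdhd, Uqcr, Atp5 or with Cox4 to Cox8, which gave 84 of the 15964 genes with a named probe set. A gene with several probe sets was represented by the brightest on array set A, else on B, else on C. This took 73 members from A, 7 from B and 4 from C. By known function, 39 members belong to complex I (NADH dehydrogenase), 8 to complex II (succinate dehydrogenase), 7 to complex III (cytochrome bc1), 16 to complex IV (cytochrome c oxidase) and 14 to complex V (ATP synthase). Not every member is a subunit. The symbols also took in 12 assembly factors, of which 7 are Ndufaf genes and 4 are Sdhaf genes, and the last is Cox7a2l, which joins complexes into supercomplexes.

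Complexes I and II pass electrons from NADH and succinate to ubiquinone. Complex III hands them to cytochrome c and complex IV to oxygen, and the proton gradient built on the way drives the ATP synthase. Enterocytes spend this ATP on ion pumps that power nutrient uptake in the small intestine, and colonocytes are known to oxidise butyrate made by bacteria. Some complex IV subunits exist as tissue isoforms: Cox6a2, Cox7a1 and Cox8b are the heart and skeletal muscle forms, and Cox6b2, Cox7b2 and Cox8c are testis forms.

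The series compared 4 untreated segments, the colon, ileum, jejunum and duodenum, of male Hsd:ICR(CD-1) mice aged 8 weeks and fed standard chow. Each segment had 3 samples, each of them total RNA pooled from 10 mice, and each sample was hybridised to array sets A, B and C (36 arrays). The colon was taken undivided, the duodenum was the short piece next to the stomach, and the whole wall was used, so muscle, immune and nerve cells contributed RNA as well as epithelium. In such tissue, fewer cells of a type and less RNA per cell cannot be told apart.

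All levels are deposited intensities on a linear scale, scaled by the authors so that the trimmed mean of an array is close to 200. The median intensity of an array, used here as its depth, lay between 48.7 and 75.2 for set A. It lay between 85.7 and 110.2 for set B and between 85.5 and 104.5 for set C. On set A the median was 48.7 to 66.4 in jejunum against 65.5 to 75.2 in ileum. Jejunum 2 and jejunum 3 had the lowest values, 48.7 and 53.2. On set B every jejunum array also lay below every ileum array, and on set C the ranges overlapped. With trimmed means nearly equal, these medians show that the intensity distributions of jejunum and ileum arrays differed. Results with median centring are given at the end. The number of arrays limits the precision. The labels matched defining genes: Car1 averaged 14650 in colon, Fabp6 10660 in ileum and Pdx1 97.0 in duodenum, each far above its level in the other segments. The array of duodenum 3 on set C, from which 4 members were read, is named jejunum in its source label and was kept as duodenum by its title. Samples ileum 1, ileum 3, jejunum 2 and jejunum 3 stood apart in the 18S ribosomal RNA control, which read 200.6 to 1541 on set A against 5772 to 20058 in the other 8 samples. Both the ileum and the jejunum hold 2 samples with low 18S signal, so their comparison is balanced for this class and the others are not. The signal itself still differed within the low class. On set A it read 717.3 and 1541 in ileum 1 and ileum 3, against 223.5 and 200.6 in jejunum 2 and jejunum 3. For actin on set A, the 3′ probe set over the 5′ one, a sign of RNA quality, gave 1.303 to 1.426 in colon, 1.138 to 1.196 in ileum, 1.278 to 1.553 in jejunum and 1.41 to 1.839 in duodenum. The ileum thus lay below the other segments in this ratio. For Gapdh on set A, the same ratio was 1.017 to 1.06 in ileum, within the 0.9536 to 1.127 of jejunum. It was 1.03 to 1.223 in colon and 1.092 to 1.244 in duodenum. The part of RNA quality in the results below was not tested.

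Along the gut the members were lowest in the ileum more often than anywhere else. The mean of the 3 pools was lowest in the ileum for 49 of 84 members (58.3%), against 18.4% of all genes. It was lowest in the colon for 19, in the jejunum for 12 and in the duodenum for 4. The highest mean lay in the jejunum for 34 members, in the duodenum for 30, in the colon for 17 and in the ileum for 3. Averaged over the 84 members, log2(intensity + 16) was 9.37 to 9.48 in the colon pools, 9.12 to 9.34 in ileum, 9.46 to 9.60 in jejunum and 9.52 to 9.63 in duodenum. The 3 ileum pools were the 3 lowest of the 12. The members are brighter than most genes, with a median intensity of 1163. Among the 42 members at or above that value the ileum was lowest for 26 (61.9%), against 14.7% of the 850 other genes as bright. Any difference among the segments was called for 18 members, where a call is an adjusted p below 0.05 in limma on log2(intensity + 16). That is 21.4% of the members, against 13.7% of all genes. Of the 42 members at or above 1163, 16 were called (38.1%), against 439 of the 850 other genes that bright (51.6%) and 51% of all 892 such genes. These shares are a description, and their differences were not tested.

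**Figure D1:**
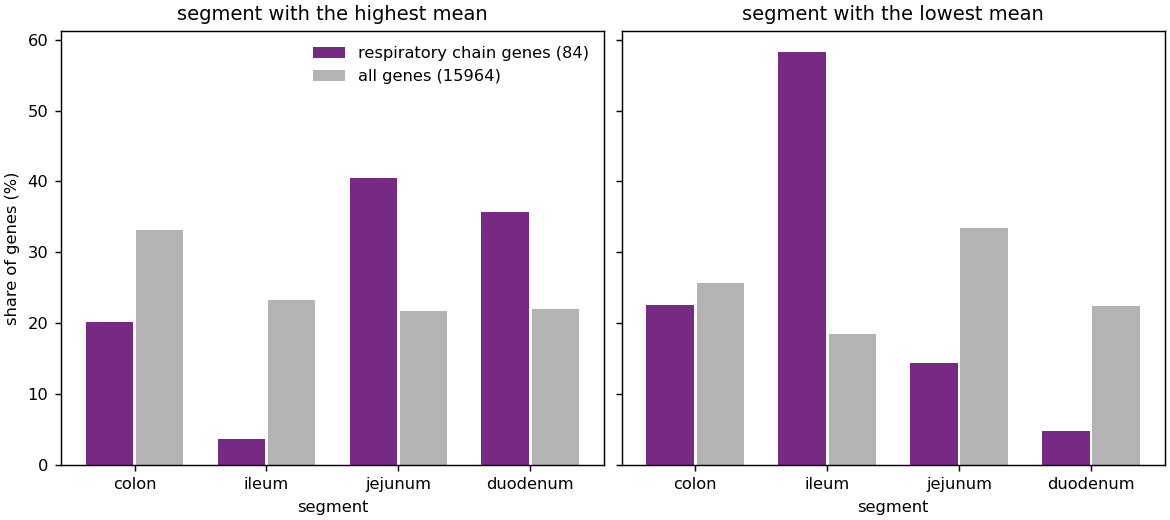
Share of the 84 respiratory chain genes (purple) and of all 15964 genes (grey) whose mean of 3 pools is highest (left) or lowest (right) in the colon, ileum, jejunum or duodenum. The ileum is the lowest segment for 58.3% of the respiratory chain genes and for 18.4% of all genes.

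**Figure D2:**
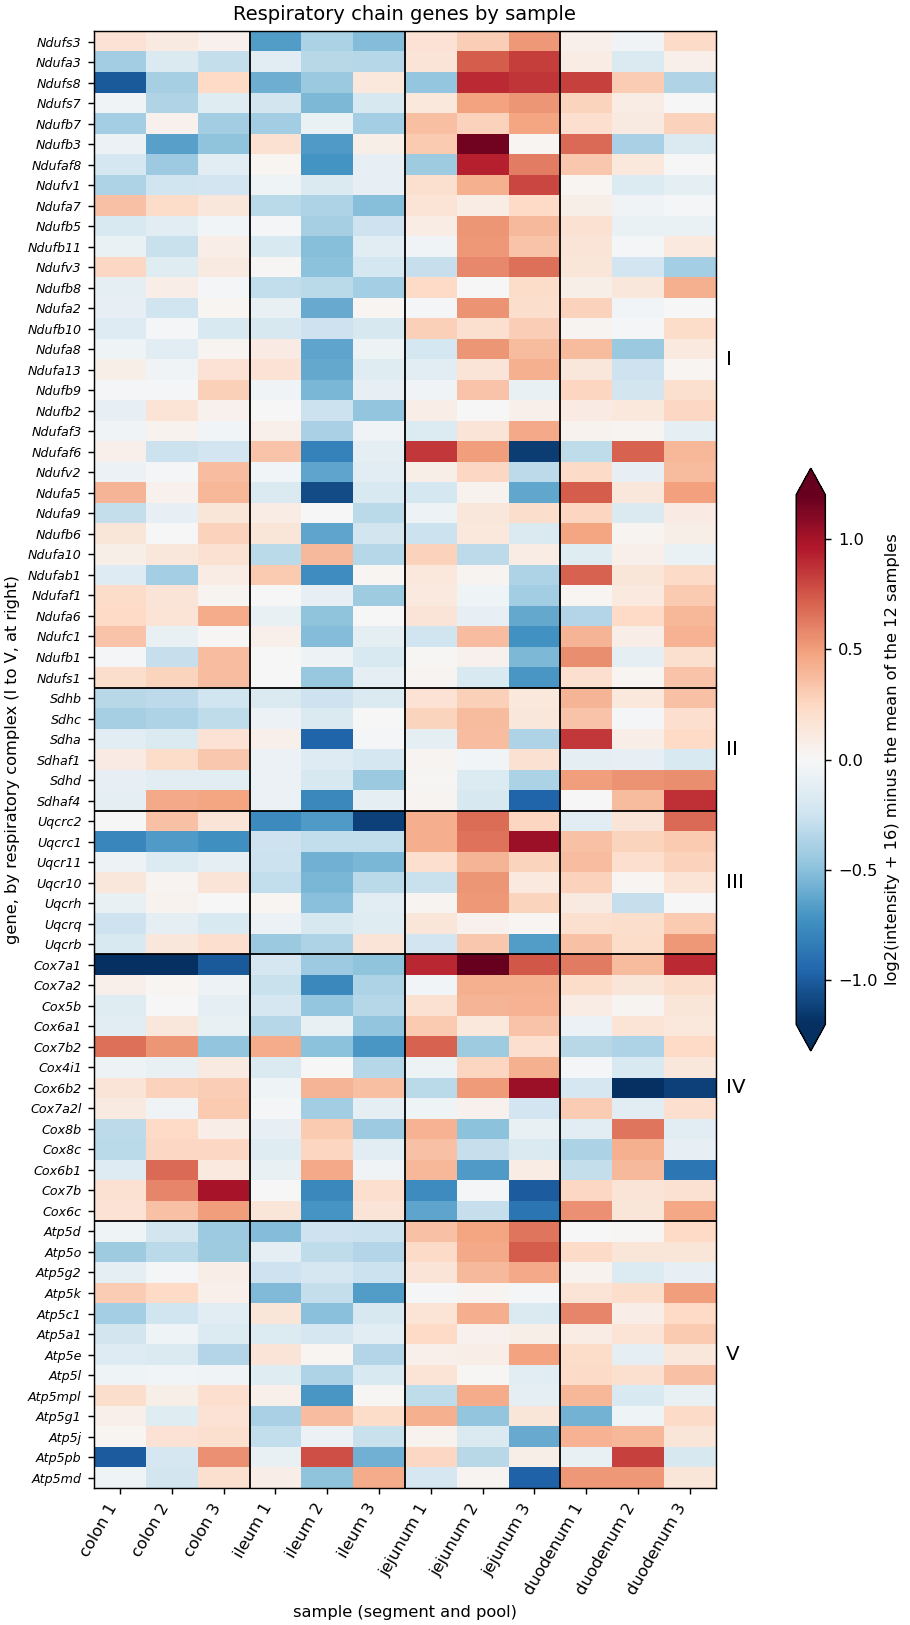
Log2(intensity + 16) of the 71 respiratory chain genes at or above the median of their array set, as the difference from the gene's own mean over the 12 samples, with genes in rows by complex and samples in columns by segment. The colour scale ends at 1.2 on either side. Blue prevails in the 3 ileum columns, and Cox7a1 is the darkest blue row in colon.

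The largest group of calls lay between ileum and jejunum. In the ileum 14 members fell and none rose, while 2.02% of all genes were called lower and 2.46% higher (4.48% in all). At an unadjusted p below 0.05 in limma, 29 members were lower and 2 higher. The calls lay in complexes I, III, IV and V: 5 of 32 complex I subunits, 3 of 7 of complex III, 3 of 15 of complex IV and 3 of 14 of complex V. None of 4 complex II subunits and none of the 12 assembly factors was called, and at an unadjusted p below 0.05, 2 and 1 of them were lower. The median log2 difference, ileum minus jejunum, was -0.27 over the 84 members and 0.08 over all genes. The 3 ileum values lay below all 3 jejunum values for 30 members (7.66% of all genes) and above them for 2 (12.7% of all genes). Bright genes as a class were also called lower in the ileum, 15.4% of the 892 at or above 1163. Of the 42 members that bright, 12 were called lower (28.6%), and their median difference was -0.47 against -0.13 for the 850 other bright genes. The 14 calls fell to between 5 and 9 when ileum 2, ileum 3, jejunum 2 or jejunum 3 was left out, and to 2 when only the arrays of these 2 segments were fitted. No setting called a member higher. Within the samples with low 18S signal, 2 against 2, the median difference over the 84 members was -0.21, and within those with high signal, 1 against 1, it was -0.42.

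Complex III gave the steepest falls among subunits with no tissue isoform, those of Uqcrc2 and Uqcrc1. Uqcrc1, a large core protein on the matrix side of the complex, had 3532, 3418 and 3436 in ileum against 5682, 6621 and 8574 in jejunum. Every ileum pool lay below every jejunum pool, and the log2 difference was -0.98 ± 0.16 (SE, adjusted p = 0.0029). Its partner core protein Uqcrc2 had 1052, 1114 and 819.1 in ileum against 2446, 2877 and 2152 in jejunum. The difference of -1.31 ± 0.20 (adjusted p = 0.0023) was the second steepest of the members called. Uqcr11, a small subunit, had 2002, 1606 and 1644 in ileum against 2766, 3186 and 2905 in jejunum (-0.75 ± 0.14, adjusted p = 0.0080). The other 4 members, Uqcr10, Uqcrb, Uqcrh and Uqcrq, were not called, and all 7 differences were below 0. For Uqcrq, another small subunit, the mean was 5573 ± 252 in ileum and 6448 ± 279 in jejunum (SD, n = 3 each). The dimmer Uqcrc1 probe set on array set B differed by -0.26 in the same direction and was not called.

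The start regions of some of the members that fell together are shown to set their sequences beside the values. RefSeq promoter windows of build GRCm38.p6, from 250 bases before to 50 bases after the start of transcription, were at hand for 70 of the 84 members. Motifs were searched on both strands, and capitals mark the NRF1 motif (GCGCA, any base, then GCGC) and CCGGAAG, a core letter string of the ETS factors such as GABP. NRF1 and GABP are known regulators of respiratory chain genes.
Uqcrc1, chr9:108936398-108936697, plus strand: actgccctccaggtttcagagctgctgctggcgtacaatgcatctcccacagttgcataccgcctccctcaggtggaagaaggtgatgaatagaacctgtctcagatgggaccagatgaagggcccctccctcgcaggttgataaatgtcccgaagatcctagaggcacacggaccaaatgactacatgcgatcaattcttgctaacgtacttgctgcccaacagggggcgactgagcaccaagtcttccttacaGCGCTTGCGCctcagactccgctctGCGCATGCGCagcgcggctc
Atp5o, chr16:91931581-91931880, minus strand: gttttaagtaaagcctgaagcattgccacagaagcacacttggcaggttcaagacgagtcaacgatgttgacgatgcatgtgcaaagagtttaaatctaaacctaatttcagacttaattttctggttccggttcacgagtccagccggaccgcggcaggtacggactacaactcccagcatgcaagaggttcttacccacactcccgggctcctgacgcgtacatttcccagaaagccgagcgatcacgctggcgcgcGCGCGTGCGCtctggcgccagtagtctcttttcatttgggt
Ndufs3, chr2:90904672-90904971, minus strand: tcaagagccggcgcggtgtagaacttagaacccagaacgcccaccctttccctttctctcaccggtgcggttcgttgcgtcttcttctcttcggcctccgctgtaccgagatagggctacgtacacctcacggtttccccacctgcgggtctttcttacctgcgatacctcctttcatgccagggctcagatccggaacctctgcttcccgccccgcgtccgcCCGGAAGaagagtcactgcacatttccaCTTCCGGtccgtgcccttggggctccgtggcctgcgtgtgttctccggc
Uqcr11, chr10:80406772-80407071, minus strand: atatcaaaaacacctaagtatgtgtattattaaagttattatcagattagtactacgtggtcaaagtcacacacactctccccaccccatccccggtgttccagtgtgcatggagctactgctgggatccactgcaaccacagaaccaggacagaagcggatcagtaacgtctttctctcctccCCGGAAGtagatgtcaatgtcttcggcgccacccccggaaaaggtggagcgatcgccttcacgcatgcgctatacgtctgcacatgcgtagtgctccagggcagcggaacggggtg
Cox7a1, chr7:30183921-30184220, plus strand: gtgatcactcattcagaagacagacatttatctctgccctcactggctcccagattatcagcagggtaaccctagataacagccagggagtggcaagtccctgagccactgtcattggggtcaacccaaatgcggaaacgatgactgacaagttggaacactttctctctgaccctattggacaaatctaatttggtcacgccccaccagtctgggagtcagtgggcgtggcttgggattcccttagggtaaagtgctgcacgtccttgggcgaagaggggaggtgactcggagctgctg
The Uqcrc1 window held 2 matches to the NRF1 motif and the Atp5o window 1, while the Ndufs3 window held 2 matches to CCGGAAG and the Uqcr11 window 1. The Cox7a1 window held neither. The NRF1 motif occurred in 14 of the 70 member windows (20%), against 4.78% of the windows of 27025 genes. CCGGAAG occurred in 20 (28.6%), against 9.12% of all genes. AAGGTCA, the half-site of the oestrogen-related receptors, occurred in 5 (7.14%), against 4.66%. Matches of different motifs overlapped in none of the 70 windows. Of the 14 members called lower in the ileum, 13 had a window, of which 3 held the NRF1 motif (Atp5g2, Atp5o and Uqcrc1), 3 held CCGGAAG (Ndufb7, Ndufs3 and Uqcr11) and none held AAGGTCA. The printed windows are only some of these 13, and matches are more frequent among the printed ones than among the 13. A match describes the letters of the window and does not show a binding site.

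In complex I the called members were the core subunits Ndufs3 and Ndufs7 and the accessory subunits Ndufa3, Ndufa7 and Ndufb7. Ndufs3, a core subunit of the arm that carries electrons to ubiquinone, had 1199, 1465 and 1325 in ileum against 2156, 2352 and 2748 in jejunum (-0.85 ± 0.15, adjusted p = 0.0047). Ndufs7, which holds the last iron-sulfur cluster before ubiquinone, had 4150, 3325 and 4211 in ileum against 5286, 6757 and 6979 in jejunum (-0.70 ± 0.18, adjusted p = 0.048). The groups did not overlap for either gene. The Ndufs7 call was lost when any single colon, ileum or duodenum sample was left out, and without jejunum 2 or jejunum 3. A second, dim Ndufs3 probe set on array set B (mean 112.4) gave -0.22 and was not called. Among the accessory subunits, Ndufa3 averaged 2182 ± 188 in ileum and 3990 ± 936 in jejunum (SD, n = 3 each), Ndufa7 2271 ± 153 and 3375 ± 169 in the same order, and Ndufb7 2470 ± 345 and 3921 ± 263. A second Ndufa3 probe set (mean 208.8), above the array medians, gave -0.18 and was not called (adjusted p = 0.88). A dim Ndufb7 probe set (mean 18.7) lies under the array medians and gave 0.43. The Ndufb7 call was lost when any single jejunum or duodenum sample was left out. It was also lost without colon 1, colon 3, ileum 1 or ileum 3.

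The other core subunits of complex I did not pass the test between ileum and jejunum. Ndufv1, which binds NADH and takes its electrons, had 2965, 2721 and 2862 in ileum against 3508, 4126 and 5382 in jejunum, without overlap (-0.58 ± 0.16, adjusted p = 0.070). Ndufv2, its iron-sulfur neighbour, had 1532, 1002 and 1425 in ileum against 1642, 1862 and 1257 in jejunum, with overlap. Ndufs1, the largest iron-sulfur subunit, had 569.5, 408.0 and 523.3 in ileum against 580.3, 495.3 and 342.2 in jejunum, where the ileum mean was the higher one. Ndufs8, an iron-sulfur subunit read on array set C, had 3233, 3576 and 5321 in ileum against 3527, 9083 and 8818 in jejunum, and jejunum 1 stood near the ileum pools. Jejunum 1 was left out in turn like every sample, and without it the calls in this comparison numbered 19, with Ndufv1 among them (adjusted p = 0.016).

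Within complex IV, 3 members fell in the ileum. Cox5b, a zinc-binding subunit, had 3185, 2653 and 2892 in ileum against 4163, 4872 and 4895 in jejunum (-0.67 ± 0.14, adjusted p = 0.017). Cox7a2, the widely expressed form of subunit VIIa, had 3471, 2432 and 3220 in ileum against 4078, 5610 and 5642 in jejunum (-0.75 ± 0.17, adjusted p = 0.030). Its probe set on array set C (mean 697.1) gave -0.10 and was not called (adjusted p = 0.97). Cox7a1, its heart and muscle form, had 318.2, 267.6 and 258.9 in ileum against 705.5, 1011 and 630.5 in jejunum (-1.40 ± 0.21, adjusted p = 0.0018). Cox7a1 thus had the smallest adjusted p and the steepest fall of the 14, at 0.360 of the jejunum mean. Cox4i1, the main form of the largest nuclear-encoded subunit, had 335.1, 381.1 and 295.8 in ileum against 362.4, 458.5 and 516.1 in jejunum and was not called. Cox6c and Cox7b, small membrane subunits, ran the other way without passing the test: Cox6c averaged 2321 ± 715 in ileum and 1649 ± 354 in jejunum (SD, n = 3 each).

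In complex V the called members were Atp5d, Atp5o and Atp5g2. Atp5d, the delta subunit of the rotating central stalk, had 849.9, 1030 and 1018 in ileum against 1571, 1709 and 1925 in jejunum (-0.84 ± 0.15, adjusted p = 0.0081). It carries 6 probe sets, and the 2 others above the array medians were also called lower (-0.84 and -0.63). Of the 3 dim ones, 1 was called higher (1.83, mean 58.6), and the other 2 were not called. Atp5o, the OSCP subunit that fixes the outer stalk to the catalytic head, had 3456, 3008 and 2906 in ileum against 4362, 5113 and 6166 in jejunum (-0.73 ± 0.15, adjusted p = 0.018). Atp5g2, one of the genes for the membrane ring, had 443.3, 458.3 and 440.5 in ileum against 593.3, 701.5 and 733.6 in jejunum (-0.57 ± 0.15, adjusted p = 0.048). Its probe set on array set C (mean 434.4) gave -0.13 and was not called (adjusted p = 0.96). The Atp5g2 call was lost when any single colon, ileum or duodenum sample was left out, and without jejunum 2 or jejunum 3. Atp5a1, the alpha subunit of the head, had 5679, 5551 and 5832 in ileum against 7516, 6626 and 6703 in jejunum, and Atp5c1, the gamma subunit, 3432, 2193 and 2720 against 3483, 4204 and 2753 in the same order. Neither was called, though the Atp5a1 groups did not overlap.

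Complex II, shared with the citric acid cycle, had no call in this comparison on its chosen probe sets. Sdhb, the iron-sulfur subunit, had 2388, 2270 and 2393 in ileum against 3041, 3301 and 2953 in jejunum, without overlap (-0.40 ± 0.13, adjusted p = 0.16). A second Sdhb probe set on array set B gave -0.79 and was called (adjusted p = 0.037). Sdha, the flavoprotein that oxidises succinate, had 234.4, 107.1 and 220.7 in ileum against 206.2, 294.5 and 170.5 in jejunum. Sdhc had 1809, 1680 and 1895 in ileum against 2288, 2466 and 2081 in jejunum, and Sdhd is described with the duodenum below.

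**Figure D3:**
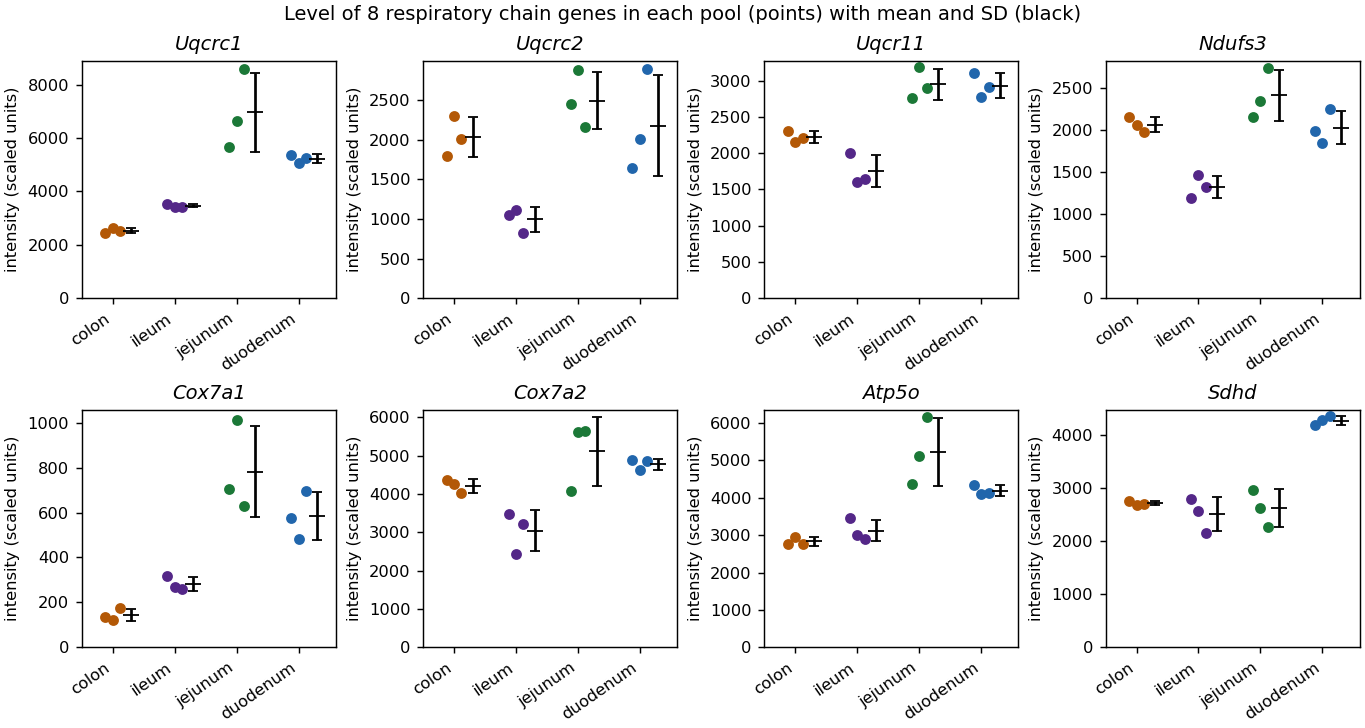
Intensity of 8 respiratory chain genes in each of the 3 pools of the colon, ileum, jejunum and duodenum (coloured points), with the mean and SD of the pools in black and axes that start at 0. Uqcrc1, Uqcrc2, Uqcr11, Ndufs3, Cox7a1, Cox7a2 and Atp5o are lower in every ileum pool than in every jejunum pool, and Sdhd is higher in every duodenum pool than in any other.

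Between colon and ileum, 4 members were called, 3 higher and 1 lower in colon (4.76%, against 5.22% of all genes, 2.49% higher and 2.74% lower), so their share was near that of all genes. Uqcrc2 had 1790, 2294 and 2002 in colon against 1052, 1114 and 819.1 in ileum (1.02 ± 0.20, adjusted p = 0.0087). Ndufa7, a small accessory subunit, had 3840, 3514 and 3298 in colon against 2396, 2317 and 2100 in ileum (0.64 ± 0.13, adjusted p = 0.012). Ndufs3 had 2161, 2063 and 1982 in colon against 1199, 1465 and 1325 in ileum (0.64 ± 0.15, adjusted p = 0.023). All 3 were higher in every colon pool than in every ileum pool. Cox7a1 went the other way, with 134.9, 121.9 and 174.6 in colon against 318.2, 267.6 and 258.9 in ileum (-0.91 ± 0.21, adjusted p = 0.025). Uncalled members next in line were Atp5k, subunit e of the ATP synthase, at 230.5 ± 21.5 in colon and 136.2 ± 21.1 in ileum (SD, n = 3 each, adjusted p = 0.061), and Cox6a2, which was dim in both. The median difference was 0.19 over the members and 0.03 over all genes. The comparison shares its ileum samples with that of ileum and jejunum. No member was called without ileum 3, 1 without colon 1 or without colon 2, and 2 without ileum 1. With the 18S class as a block 3 were called, of which only Ndufa7 was among the 4. Among the samples with high 18S signal, where ileum 2 stands alone and is assumed to vary like the others, the 4 called (Cox6c, Cox7a2, Cox7b and Ndufa5) were other genes.

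When the colon was set against ileum, jejunum and duodenum together, 6 members were called, 5 lower and 1 higher in colon. Of all genes 4.96% were called lower and 6.92% higher. The 6 are 7.14% of the members, against 11.9% of all genes. Of the 42 members at or above 1163, 5 were called (11.9%), against 374 of the 850 other genes that bright (44%) and 42.5% of all 892 such genes. Cox7a1 was the most marked: colon pools had 134.9, 121.9 and 174.6, against 258.9 to 1011 with a median of 575.3 in the 9 small-intestinal samples. It was at 0.262 of the small-intestinal mean (log2 difference -1.71 ± 0.17, adjusted p = 7.0e-06). It was called under each of the 13 other settings tried, and kept its call whichever sample was left out. Cox7a1 has only 1 probe set, so the settings that change the probe set could not alter this call. Uqcrc1 had 2442, 2626 and 2516 in colon, against 3418 to 8574 with a median of 5240 in the small intestine (-0.98 ± 0.13, adjusted p = 0.00011). Its second probe set, on array set B, was also called lower (-0.71, adjusted p = 0.044). Sdhc, a membrane anchor of complex II, had 1431, 1457 and 1534 in colon, below all 9 small-intestinal samples at 1680 to 2466 with a median of 2081 (-0.48 ± 0.11, adjusted p = 0.016). The Sdhc probe set on array set B (mean 161.4) gave -0.03 and was not called (adjusted p = 0.98). Sdhb averaged 2191 ± 74.7 in colon (SD, n = 3) and 2926 ± 484 in small intestine (SD, n = 9), with overlap. Atp5o averaged 2830 ± 110 in colon (SD, n = 3) and 4176 ± 1025 in small intestine (SD, n = 9), also with overlap. Cox7b alone was called higher, at 2110 ± 585 in colon and 1251 ± 383 in small intestine (0.78 ± 0.23, adjusted p = 0.049), and the groups overlapped. With the 18S class as a block the calls were 5 and those for Sdhb and Atp5o were lost, while Cox6c was called higher. The calls numbered 2 without colon 2 or without colon 3, and 3 without colon 1. Cox7a1 and Uqcrc1 were the 2 left without colon 2.

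**Figure D4:**
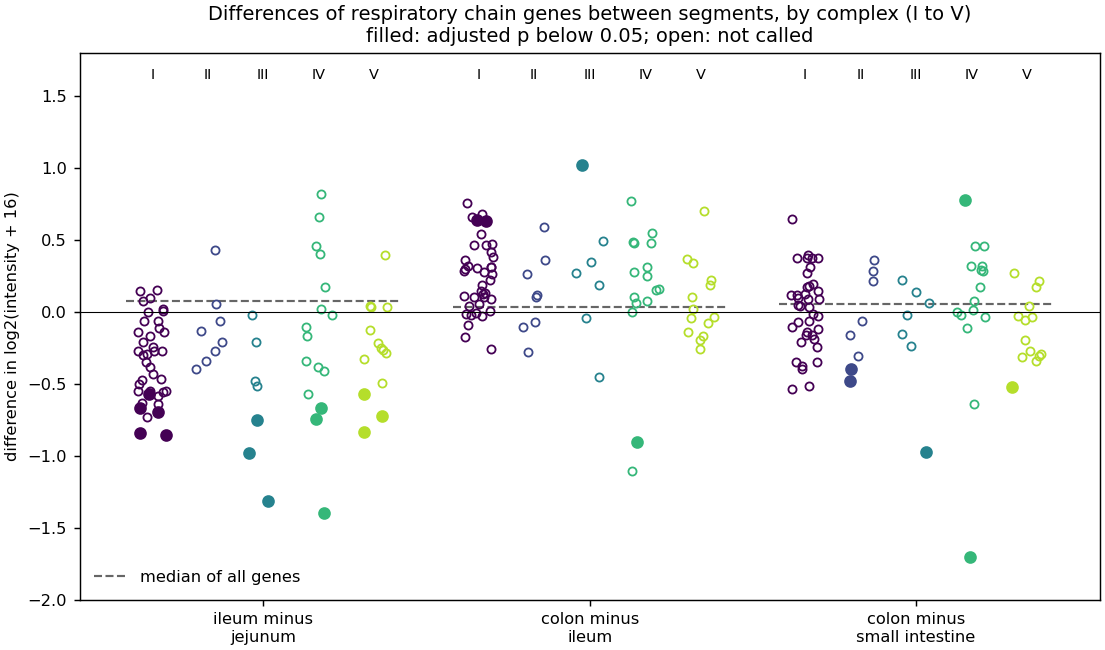
Difference in log2(intensity + 16) of each of the 84 respiratory chain genes for ileum minus jejunum, colon minus ileum and colon minus the small-intestinal mean, by complex (I to V). Filled points were called at an adjusted p below 0.05, open points were not, and dashed lines mark the median of all genes. The 14 filled points of ileum minus jejunum all lie below 0.

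Between jejunum and duodenum 1 member was called, Sdhd, which was lower in jejunum (1.19%, against 1.5% of all genes, 0.858% lower). This membrane anchor of complex II had 2962, 2628 and 2262 in jejunum against 4172, 4267 and 4345 in duodenum (-0.71 ± 0.15, adjusted p = 0.033). Its colon pools had 2749, 2677 and 2689 and its ileum pools 2791, 2570 and 2152, so that only the duodenum stood apart. Cox6c came next, with 1582, 2031 and 1333 in jejunum against 3611, 2718 and 3400 in duodenum (-0.98 ± 0.23, adjusted p = 0.061). At an unadjusted p below 0.05 in limma, 6 members were higher and 9 lower in jejunum, and the median difference was -0.003, against -0.05 over all genes. The Sdhd call was lost when any 1 of 8 of the 12 samples was left out, with the 18S class as a block (adjusted p = 0.19) and on a dimmer probe set of array set C (0.46, adjusted p = 0.88). Without jejunum 1 there were 5 calls, of which Cox6b2, Ndufa3 and Ndufv1 were higher in jejunum. Pancreatic tissue moved with this comparison: 12 of 13 measured genes of exocrine pancreas were called lower in jejunum, and their summed intensity was 2013 to 3215 in jejunum against 119400 to 123100 in duodenum. Its part in the Sdhd value was not tested.

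Members of paralog groups did not all follow the same course. Cox7a1 fell against Cox7a2 in colon: the log2 difference between the paralogs shifted by -1.72 in the 3 colon samples against the 9 small-intestinal ones. An exact 2-sided permutation test over samples gave p = 0.0091, the smallest this design allows, or 0.045 after adjustment over 5 paralog pairs. The test was chosen after Cox7a1 had been seen to be lower in every colon sample than in all 9 others, so it adds no independent support. It also treats the 9 small-intestinal samples as alike, though Cox7a1 differed between ileum and jejunum. Cox7a2 itself had 4367, 4247 and 4011 in colon and, in small intestine, 2432 to 5642 with a median of 4613. The other 4 pairs gave adjusted p of 0.52 or above. Cox6a1, the common form of subunit VIa, averaged 10470 in colon, 8669 in ileum, 12800 in jejunum and 11220 in duodenum. Its muscle form Cox6a2 was dim, with its mean under the median of the array set: its pools had 11.6 to 18 in colon, 45.6 to 53.9 in ileum, 15.1 to 32.5 in jejunum and 17.3 to 55.4 in duodenum. Cox8b reached 237.4 at most and Cox8c had 256.5 to 460.4 over all 12 samples, with overlap of every pair of segments, and Cox8a was at 3.2 to 37.0, under the array medians. Another Cox8c probe set, on array set C, averaged 15360 and was called in no comparison. Cox6b1 had 60.9 to 208.5 over all samples. Its testis form Cox6b2 had 109.2 to 122.5 in colon, 93.0 to 133.6 in ileum, 74.0 to 213.8 in jejunum and 28.8 to 82.3 in duodenum, and neither was called. Cox7b2, read on array set C, had 174.0 to 490.1. Atp5g1 had 53.3 to 121.5 over all samples. Levels of different probe sets are not comparable with each other in absolute terms.

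Genes that mark striated muscle, brown fat and other cells were set beside Cox7a1. Of 16 striated muscle genes 1, Actc1, was called, higher in colon. The summed level of the 16 was 1886 to 2015 in colon, 1430 to 1962 in ileum, 1117 to 1716 in jejunum and 1186 to 1438 in duodenum, and the ranges of colon and ileum overlapped. The muscle creatine kinase Ckm had 63.1 to 205.3 over all samples, and Ucp1, the uncoupling protein of brown fat, had 6.4 to 32.4, under the array medians.

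Other cell types moved with the comparisons of the whole set. Smooth muscle genes (12 of 12 measured) summed to 30380 to 34530 in colon, 11660 to 14570 in ileum, 7305 to 10260 in jejunum and 7107 to 8173 in duodenum, and 3 of them were called higher in ileum than in jejunum. Enterocyte genes (12 of 12) summed to 8894 to 9638 in colon, 58190 to 76390 in ileum, 89760 to 105300 in jejunum and 99880 to 135900 in duodenum, and 5 fell and 1 rose in ileum against jejunum. Of 12 measured B and T cell genes 3 were called higher in ileum than in jejunum, and their sum was 3055 to 3334 in ileum against 1459 to 2238 in jejunum. Of 8 goblet cell genes 1 was called higher in ileum than in jejunum, and of 8 adipocyte genes 2 were called lower. None of 12 proliferation or 9 enteric nerve and glia genes was called, but their sums did not overlap. Proliferation genes summed to 3097 to 3570 in ileum against 2522 to 3052 in jejunum. Nerve and glia genes, most under the array medians, summed to 181.6 to 213.3 against 243.5 to 284.9 in the same order. Adipocyte genes summed to 880.6 to 1002 against 1424 to 1873, and goblet cell genes to 58140 to 77010 against 55890 to 60090. The part of these cells in the lower respiratory chain values of the ileum was not tested.

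Some members were represented by a dim probe set. The chosen probe sets of 13 members lay under the median of their array set on average, among them the subunits Atp5j2, Cox5a, Cox8a, Ndufa1, Ndufa12, Ndufc2 and Ndufs4, and none of these 13 was called. Atp5j2, Cox5a, Ndufa12, Ndufaf4, Ndufs4 and Sdhaf2 have a further probe set above the median on array set B or C. Cox5a, a matrix-side subunit of complex IV, read 9.3 to 32.5 on its chosen probe set, but its probe set on set C averaged 7174 and gave -0.11 for ileum minus jejunum (adjusted p = 0.95). With the brightest probe set over all array sets in place of the chosen ones, the call counts of all comparisons were as given above. A further 16 probe sets that carry a member's symbol together with that of another gene were not used to name genes, and 1 of them was called between ileum and jejunum, lower in ileum.

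Other mitochondrial gene lists were read between ileum and jejunum, where 4.48% of all genes and 16.7% of the members were called. Cyc1, the cytochrome c1 subunit of complex III whose symbol lies outside the rule, had 6488, 5738 and 6129 in ileum against 8914, 9515 and 11035 in jejunum (-0.68, adjusted p = 0.023). With Etfb, an electron transfer flavoprotein subunit, it made 2 of 12 measured electron carrier and ubiquinone genes called lower (16.7%), and none was called higher. Of 17 citric acid cycle and pyruvate dehydrogenase genes 2 fell, Mdh2, which makes oxaloacetate (4617 ± 329 in ileum and 9779 ± 513 in jejunum, SD, n = 3 each), and Ogdh. Of 74 mitochondrial ribosome genes 3 fell (Mrpl4, Mrpl12 and Mrpl48), and their median difference was -0.08. Of 22 mitochondrial import genes 1 fell, Tomm40l, and of 23 other assembly factors 1 fell, Cox19. Among 18 measured regulators of mitochondrial biogenesis 2 fell, Ppara and Polg2, but 12 of the 18 differences were above 0. The median difference was 0.129 for these regulators and 0.065 for the citric acid cycle list, against 0.079 over all genes. It was -0.172 for the electron carrier list, -0.047 for the import list and -0.081 for the other assembly factors. Esrra, the oestrogen-related receptor alpha, had 1495, 1700 and 1683 in ileum against 1984, 1881 and 1967 in jejunum and was not called there. The glycolytic and carrier genes of a mixed list moved both ways: of 16 measured, 3 rose in ileum (Hk2, Slc25a4 and Hk1) and 2 fell, among them Pkm (31.2% called).

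The same lists were also read in colon. Against the small-intestinal mean, where 11.9% of all genes were called, 4 of 17 citric acid cycle genes fell and 2 rose, with Mdh2 at 2979 ± 118 in colon (SD, n = 3) and 8510 ± 3177 in small intestine (SD, n = 9, log2 difference -1.41, adjusted p = 3.6e-06). Ogdh averaged 1425 ± 110 in colon and 3458 ± 1203 in small intestine (adjusted p = 0.00015), Dlst fell by 0.81 on the log2 scale and Pdha1 rose (0.98). Esrra had 1066, 1001 and 1017 in colon against 1495 to 1984 in small intestine (-0.77, adjusted p = 0.00015), and Yy1 rose (1.00). Hk2, a hexokinase, had 692.6 ± 97.8 in colon and 139.2 ± 116 in small intestine (adjusted p = 1.4e-06). Surf1, an assembly factor of complex IV, was higher in colon (0.77, adjusted p = 0.0011), and Cox19, another, was lower (-0.62, adjusted p = 0.0068). Between colon and ileum, Surf1 (0.78) and Mrps6 (1.74) were called higher, and Esrra (-0.65) and Mdh2 (-0.63) lower. Of the mixed list 3 of 16 were called higher there, namely Vdac3 (1.48), Hk2 (1.26) and Pkm (0.80), and 2 lower, among them Pdk2 (-0.93). No electron carrier or import gene was called. At an unadjusted p below 0.05 in limma, 2 electron carrier genes were higher, and 2 import genes were higher and 1 lower. Of the 74 mitochondrial ribosome genes 1 rose (Mrps6) and 1 fell (Mrpl4) against the small intestine. Between jejunum and duodenum 1 gene of these lists was called, Pdha1, lower in jejunum.

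The genes whose pattern was most like the mean of the 73 members on array set A, by Pearson correlation over the 12 samples among 8178 other genes of the set, were Gramd3 (0.960), Il18 (0.947), Gclm (0.916), Bsg (0.915) and Mrpl24 (0.891). These correlations are a description over samples that share their segments. Gramd3 averaged 180.5 ± 19.3 in colon, 95.2 ± 45.2 in ileum, 348.1 ± 102.5 in jejunum and 373.1 ± 17.2 in duodenum (SD, n = 3 each). Bsg, a chaperone of lactate transporters, averaged 4315 ± 229 in colon, 3606 ± 227 in ileum, 4731 ± 258 in jejunum and 4987 ± 714 in duodenum. All 5 had their lowest mean in the ileum, which their choice by correlation with the members' mean made likely.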

How the data were processed

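Per the labels, RNA of 4 intestinal segments was hybridised to the Affymetrix mouse array sets A, B and C, with 3 pools of 10 mice a segment. The authors deposited linear intensity values, scaled so that the mean of an array without its highest and lowest 2% lies between 200.0 and 200.2. The software is not given in the sources used here. From them log2 of the intensity plus 16 was computed, which makes differences of dim genes smaller, and 198 control probe sets were left out. Segment means were estimated in limma (version 3.58.1, R 4.3.3) from the 12 arrays of a set, separately for A, B and C, with variances moderated along an intensity trend. Benjamini-Hochberg adjustment ran over all 36701 probe sets at once, tests were 2-sided, and a call is an adjusted p below 0.05. They measure the spread between pools. Symbols came from the platform annotation (29131 probe sets with 1 symbol, 724 with several, 6846 with none). The members and gene lists were chosen with earlier results of these data known. Every member may be named. Sample values could be given for the 6 members with the smallest adjusted p of a comparison, for paralog groups and for core subunits. Some of these appear only as a mean or range, and others are left out. Up to 4 called genes are named per context list. Alternatives covered the offset, a filter, scaling, variance trend, 18S class, replicate block, probe set choice and left-out samples. In simulated data for colon against small intestine, 200 of 36701 probe sets were raised in colon by a log2 difference of 1 and 200 by 2. Of these, 24% and 81% were called in that order, and 3.23% of calls were false. The altered probe sets were few and drawn from all intensities, so the shares do not give the sensitivity for the members. The 5 paralog pairs were compared with an exact permutation test (scipy 1.17.1) chosen after seeing the data.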

Additional observations from a re-analysis of the deposited data

How the results depend on the processing

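The called members were chosen on these same arrays, which makes a change of direction unlikely. The direction of every called member held under each change of offset, filter, scaling, trend, block and left-out sample. It reversed only where another probe set of the gene was taken: Sdhd (0.46, jejunum minus duodenum), Atp5d (0.20) and Ndufb7 (0.43, both ileum minus jejunum) with the upper middle probe set, and Ndufs3 (-0.082, colon minus ileum) with the lower middle one. Each of these probe sets is dimmer than the one reported. For ileum against jejunum the 14 calls became 8 with quantile normalization, 6 without the intensity trend, 2 with only the arrays of the 2 segments, 7 with the upper middle probe set and 0 with only the samples of high 18S signal, where each segment has 1 sample left and 9 members had calls for any difference, and from 5 to 19 when 1 sample was left out. All of these calls were lower. Calls for any difference were 8 without the trend, 10 with the lower middle probe set and 11 to 24 with 1 sample left out. For jejunum against duodenum the single call became 2 with the filter or with array set A alone and 0 with median centring, without the trend, with only the 2 segments' arrays, with high 18S signal only or with the upper middle probe set, and ranged from 0 to 5 with 1 sample left out. For colon against ileum the 4 calls became 1 with median centring or without the trend and ranged from 0 to 5 with 1 sample left out. For colon against small intestine the 6 calls became 2 without the trend and ranged from 2 to 7 with 1 sample left out. Why the counts change with scaling and trend was not tested. Median centring moved the median of all genes for ileum minus jejunum to -0.13 and that of the members to -0.54, so the members lay below all genes in that setting too. A replicate block gave 14 members called for any difference, and 10, 4, 4 and 1 for ileum against jejunum, colon against ileum, colon against small intestine and jejunum against duodenum. The deviations of same-numbered samples on array set A correlated between -0.462 and 0.471 with a median of 0.004, and 6 of 18 were over 0.1. Pairs with different numbers gave -0.452 to 0.371 with a median of -0.018, and 12 of 36 were over 0.1. With 3 samples a segment, these values cannot settle whether the numbers mark the same mice. The brightest probe set over all array sets and the values within 18S classes were added after seeing the data, and the brightest probe sets gave 14, 4, 6 and 1 calls in the order above.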
